A study of Homo sapiens with 5 samples.

Results

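Genomic imprinting leaves 1 parental copy of a gene active and the other silent, through DNA methylation laid down in the germ line. Many imprinted genes act on fetal growth, and several lie in clusters that share a control region. The 10 imprinted genes described here were chosen by Ensembl identifier. They are IGF2 (ENSG00000167244), DLK1 (ENSG00000185559), CDKN1C (ENSG00000129757), GRB10 (ENSG00000106070), PLAGL1 (ENSG00000118495), MEST (ENSG00000106484), PEG10 (ENSG00000242265), MAGEL2 (ENSG00000254585), NDN (ENSG00000182636) and SNRPN (ENSG00000128739). All 10 were among the 20001 genes with an identifier in the deposited table. They lie on 5 chromosomes, which by RefSeq (assembly GRCh38.p14) are chromosome 6 for PLAGL1, 7 for GRB10, PEG10 and MEST, 11 for IGF2 and CDKN1C, 14 for DLK1, and 15 for MAGEL2, NDN and SNRPN. The counts are totals per gene, so they do not show which parental copy was transcribed.

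The data are PRO-seq counts, which report engaged RNA polymerase rather than accumulated RNA. The cells were HEK293T, derived from human embryonic kidney and expressing the large T antigen of SV40, made into monoclonal lines with a landing pad, a site built to accept inserted DNA. One line holds CAG, a strong composite promoter (3 libraries), and the other holds PGK, which comes from the gene of a glycolytic enzyme (2 libraries). The comparison asks whether nascent transcription of these genes differed between the CAG line and the PGK line. The labels give neither the number of clones behind each promoter nor whether replicates were separate cultures, so promoter and clone cannot be told apart and p-values reflect only library-to-library spread, which may be technical. Markers of the labelled cell line could not be checked, as the table lists identifiers without gene names. Library totals were 4873883 to 5864157 counts in the CAG line and 3712105 to 5582070 counts in the PGK line. A single count was therefore worth 0.170 to 0.280 CPM, where CPM is the level scaled to the TMM-normalised library size. In bulk libraries, fewer cells transcribing a gene and less transcription per cell cannot be told apart.

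The 10 genes fell into 3 that were clearly counted and 7 that were at or near 0. GRB10, PLAGL1 and CDKN1C passed the filter on low counts and were tested. The other 7 (70%) did not pass it, against 6601 of all 20001 genes (33.0%). These 7 held 23 counts in all over the 5 libraries. Of the 10 genes, 6 had at most 4 counts in all, as had 21.7% of all genes, and DLK1 and MAGEL2 had 0 counts in every library, as had 13.6% of all genes. The limit that a count of 0 allows, 3 counts over the libraries of a line, was 0.189 CPM for the CAG libraries and 0.326 CPM for the PGK libraries. These limits cover counting error only.

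**Figure D1:**
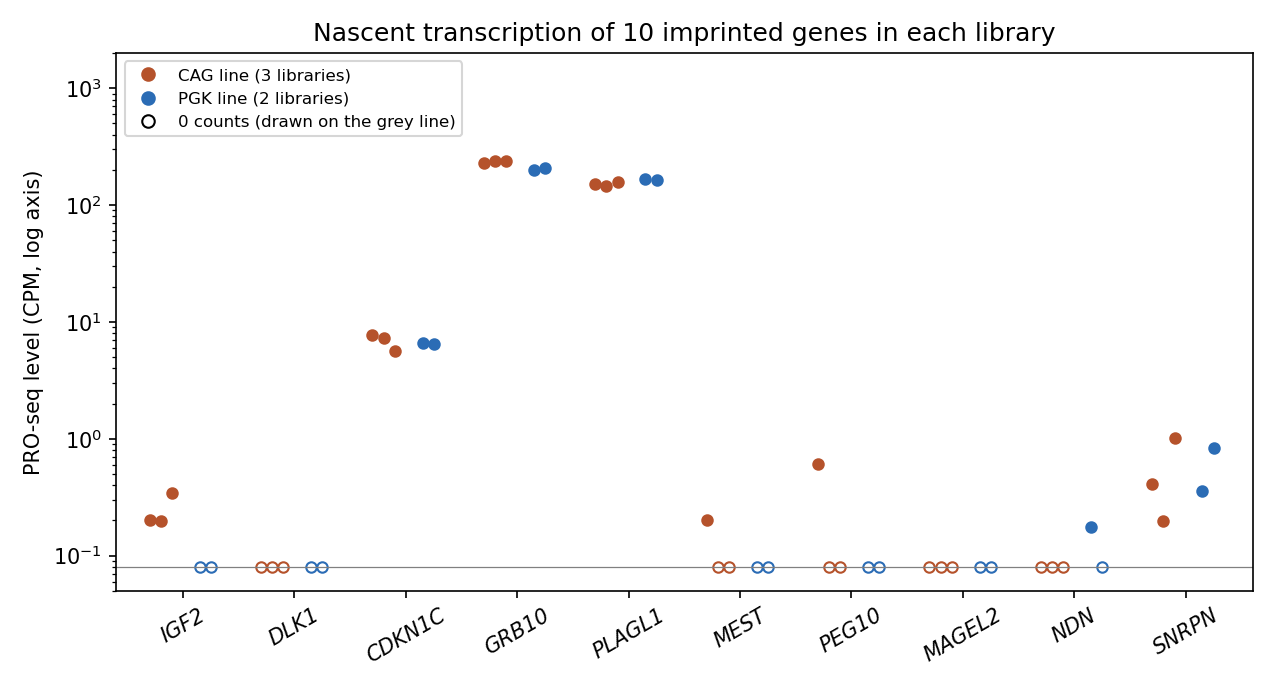
PRO-seq level in CPM on a log axis for the 10 imprinted genes, with 1 point for each of the 3 CAG and 2 PGK libraries and open points for 0 counts. GRB10 and PLAGL1 lie above 100 CPM and CDKN1C between 5.61 and 7.73 CPM in all 5 libraries, while the other 7 genes lie at or below 1.02 CPM.

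The bases just before a transcription start are shown for a pair of transcribed genes and a pair with almost no counts. Imprinting marks are carried by CpG sites, but whether these stretches lie in regions that carry such a mark was not examined. RefSeq start windows (250 bases before to 50 after a start, build GRCh38.p14) were matched by symbol for 6 of the 10 genes: GRB10, PLAGL1, MEST, MAGEL2, NDN and SNRPN. For each gene the window with the most CpG was taken, and its 30 bases directly before the start follow on the gene's own strand, 5′ to 3′, with each CpG in capitals.
GRB10 (chr7:50792875-50792904, minus strand): ccaagCGgtgcattcttgaaccatcttgtc
PLAGL1 (chr6:144008260-144008289, minus strand): gatttagacaCGgctggggCGtgctctggc
NDN (chr15:23687306-23687335, minus strand): CGctgCGgaaggCGcCGCGCGcagcaaCGc
MAGEL2 (chr15:23647868-23647897, minus strand): ctgCGgaaagctgCGgagCGagcagcactc
The number of CpG differed widely between the windows of 1 gene. Over 300 bases it ran from 3 to 49 in the 5 windows of GRB10 and from 2 to 39 in the 5 of PLAGL1. The richest of these are counts that 1.60% (GRB10) and 8.71% (PLAGL1) of all 35116 RefSeq windows reach, but they were picked as the highest of 5. NDN and MAGEL2 have 1 window each, with 35 and 9 CpG, counts that 14.1% and 58.4% of windows reach. MEST had 5 windows with 13 to 25 CpG, and SNRPN had 4 with 2 to 18. Which start was in use in these cells is not shown by a single count per gene. CG reads the same on both strands, and such counts say nothing of methylation, which was not measured.

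Of the growth inhibitors, GRB10 was the only 1 of the 10 genes called different between the lines. GRB10 encodes an adaptor protein that binds insulin and insulin-like growth factor receptors and dampens their signal. It had 1120, 1194 and 1406 counts in the CAG libraries, against 1126 and 735 counts in the PGK libraries. On the CPM scale it stood at 228, 236 and 239 CPM in the CAG libraries, against 199.6 and 206 CPM in the PGK libraries. All 3 CAG libraries lay above both PGK libraries. CAG libraries averaged 234 ± 5.90 CPM (SD, n = 3) and PGK libraries 203 ± 4.55 CPM (SD, n = 2). The log2 fold change was 0.21 ± 0.07 (SE), or 1.16-fold higher in the CAG line (95% interval 1.04 to 1.29), with an adjusted p of 0.024 by edgeR's quasi-likelihood test.

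This rise was small among all genes and close to the threshold. Of the 13400 tested genes, 43.4% were called in either direction with 22.7% higher and 20.7% lower in the CAG line, so 1 call among 3 tested genes lies near the background. The size of the change of GRB10 exceeded that of 44.4% of tested genes. The call was lost when any of 4 single libraries was left out. The edgeR adjusted p was 0.066 without CAG replicate 1, 0.063 without CAG replicate 2, 0.11 without CAG replicate 3 and 0.059 without PGK replicate 1, and 0.0075 without PGK replicate 2. The direction held in each of these fits, with log2 fold changes of 0.18 to 0.23.

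CDKN1C, an inhibitor of cyclin-dependent kinases also known as p57, showed no detectable difference at this depth. It had 38, 37 and 33 counts in the CAG libraries, against 37 and 23 in the PGK libraries, which are 7.73, 7.32 and 5.61 CPM against 6.56 and 6.45 CPM. The lowest CAG library lay below both PGK libraries and the other CAG libraries lay above them. CAG libraries averaged 6.89 ± 1.12 CPM (SD, n = 3) and PGK libraries 6.50 ± 0.0789 CPM (SD, n = 2). The log2 fold change was 0.07 ± 0.25 (SE), with an edgeR adjusted p of 0.85. Its 95% interval ran from 0.737-fold to 1.49-fold, so a change of GRB10's size could not have been seen for CDKN1C. The spread between CAG libraries was 16.3% of the mean, where counting error alone gives 16.7% at such counts. Between the 2 PGK libraries it was 1.21%, where counting error alone gives 18.3%, so their small SD understates the error.

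PLAGL1, a zinc-finger transcription factor that restrains cell growth, had 744, 733 and 926 counts in the CAG libraries, against 943 and 580 in the PGK libraries. These are 151, 145 and 158 CPM in the CAG line, against 167 and 163 CPM in the PGK line. Every CAG library lay below both PGK libraries. CAG libraries averaged 151 ± 6.30 CPM (SD, n = 3) and PGK libraries 165 ± 3.24 CPM (SD, n = 2). The log2 fold change of -0.12 ± 0.07 (SE) did not pass the test (edgeR adjusted p = 0.16), and its 95% interval ran from 0.828-fold to 1.02-fold. Libraries of the lines did not overlap for 2 of the 3 tested genes, GRB10 and PLAGL1, as for 61.2% of all tested genes. In RefSeq the span of PLAGL1 overlaps HYMAI and LOC100131041, and that of GRB10 overlaps LOC124901632. How reads of overlapping genes were assigned is not given in the sources used here, so both values hold that uncertainty.

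**Figure D2:**
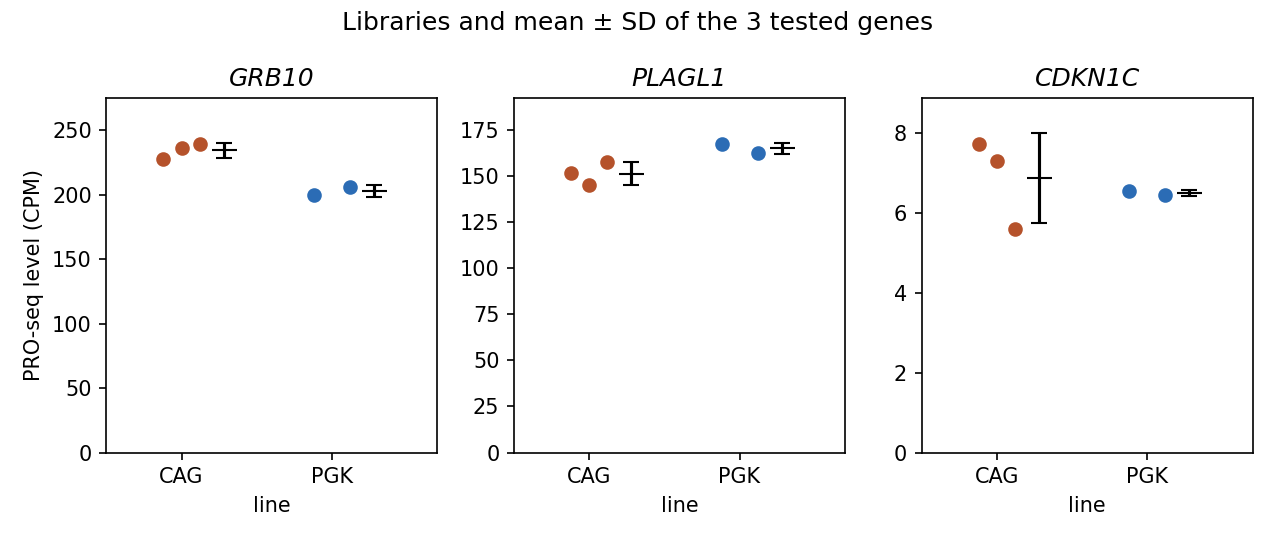
PRO-seq level in CPM, from 0, of GRB10, PLAGL1 and CDKN1C in each library of the CAG line (3) and the PGK line (2), with the mean ± SD of each line to the right of its points. CAG libraries lie above the PGK libraries for GRB10, below them for PLAGL1, and on both sides for CDKN1C.

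The 3 tested genes thus gave 1 call higher and 0 lower in the CAG line. By edgeR's unadjusted p, GRB10 was also the only one under 0.05, with PLAGL1 at 0.092 and CDKN1C at 0.79. The median log2 fold change of the 3 was 0.07, beside -0.0046 for all 13400 tested genes. The sizes of change of PLAGL1 and CDKN1C exceeded those of 28.2% and 15.8% of tested genes.

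**Figure D3:**
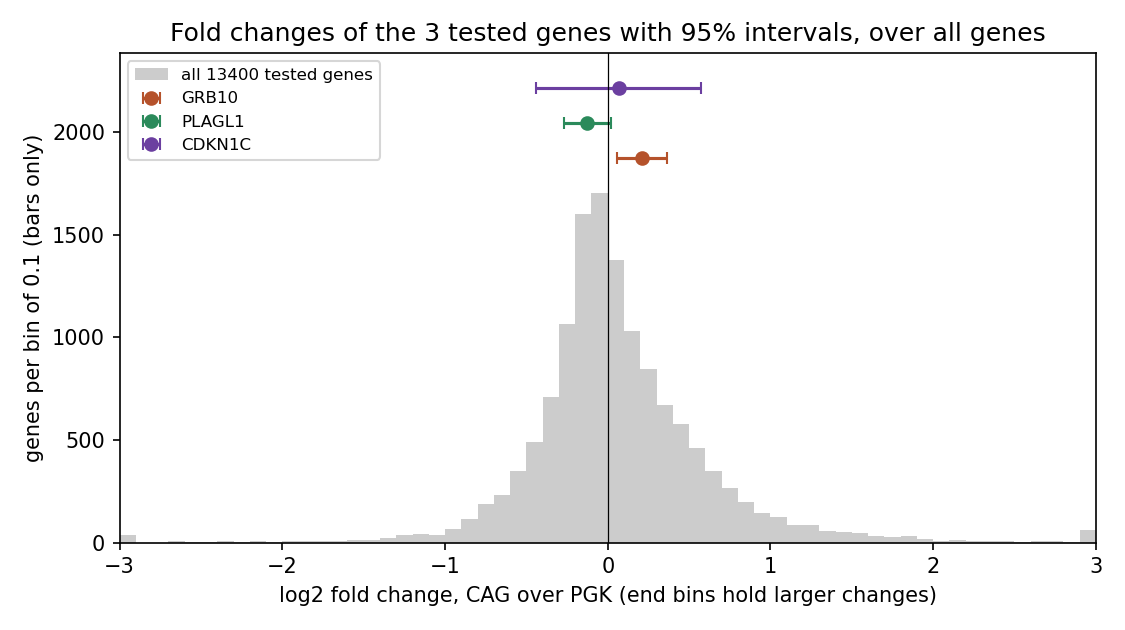
Log2 fold change of the CAG line over the PGK line for GRB10, PLAGL1 and CDKN1C (points, with 95% intervals) above the distribution over all 13400 tested genes (grey bars, genes per bin of 0.1). All 3 points lie near the centre, and only the interval of GRB10 leaves out 0.

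IGF2 and DLK1 had few or no counts in either line. IGF2 encodes a secreted fetal growth factor that acts through the insulin-like growth factor receptor. It had 1, 1 and 2 counts in the CAG libraries, against 0 and 0 in the PGK libraries. Every CAG library held a count and neither PGK library did, but the CAG level of 0.252 CPM over its pooled libraries (exact Poisson 95% interval 0.0688 to 0.646) is below the limit of 0.326 CPM that the PGK count allows, so no fold is given. Without the filter on low counts, the edgeR adjusted p of IGF2 was 0.26. In RefSeq, INS-IGF2, IGF2-AS and MIR483 overlap IGF2, which makes its count uncertain. DLK1, a transmembrane protein related to Notch ligands, had 0 counts in all 5 libraries.

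MEST and PEG10, on chromosome 7 like GRB10, were each counted in a single library. MEST, whose product belongs to the alpha/beta hydrolase fold family, had 1 count in CAG replicate 1 and 0 in the other libraries of either line. In RefSeq MEST overlaps MESTIT1, MIR335 and COPG2, which makes its count uncertain. PEG10, a gene derived from a retrotransposon and needed for placenta formation in mice, had 3 counts in CAG replicate 1 and 0 in the other 4 libraries. Without the filter, the edgeR adjusted p was 0.61 for MEST and 0.35 for PEG10.

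The rows directly beside these 2 genes were well counted. The row order of the 10 genes matched their order by chromosome and position in RefSeq for all 10, though the sources used here do not describe the order of the table. The rows directly before and after MEST held 996 and 1297 counts over the 5 libraries. Neither was called, with log2 fold changes of -0.11 and -0.22 (edgeR adjusted p of 0.48 and 0.085). Those directly before and after PEG10 held 457 and 1992 counts. Both were called higher in the CAG line, with log2 fold changes of 0.76 and 0.44 (edgeR adjusted p of 0.00096 and 0.00022). The files do not name the genes of these rows. Among the 40 tested rows around PEG10, 8 were called higher and 6 lower, with a median log2 fold change of -0.04. Over all tested genes, 22.7% were called higher and 20.7% lower. Of the 40 rows nearest to MEST, 28 passed the filter on low counts, and of the 40 nearest to PEG10, 25 did, beside 67.0% of all genes. Fewer passed around IGF2, with 16 of 39, and around MAGEL2, NDN and SNRPN, with 13 of 38 each in nearly the same rows. Around DLK1, which had 0 counts, 27 of 40 passed. For the tested genes these were 17 of 40 around GRB10, 22 of 39 around CDKN1C and 33 of 40 around PLAGL1.

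MAGEL2, NDN and SNRPN, genes of the Prader-Willi region on chromosome 15, stood close together in the table and had few or no counts in both lines. Loss of the paternal copy of this region causes Prader-Willi syndrome, and MAGEL2, NDN and SNRPN are active from the paternal copy. MAGEL2 and NDN encode related proteins of the MAGE family, and SNRPN encodes a small nuclear ribonucleoprotein of the splicing machinery. They occupied rows 13543, 13544 and 13546. MAGEL2 had 0 counts in all libraries. NDN had 0 counts in the 3 CAG libraries, against 1 and 0 counts in the PGK libraries. The row between NDN and SNRPN had 0 counts in all 5 libraries.

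SNRPN was the only 1 of the 7 untested genes with a count in every library. It had 2, 1 and 6 counts in the CAG libraries, against 2 and 3 counts in the PGK libraries, and the lines overlapped. Over pooled libraries its level was 0.568 CPM in the CAG line (exact Poisson 95% interval 0.260 to 1.08) and 0.543 CPM in the PGK line (0.176 to 1.27). Without the filter, its log2 fold change was 0.05 ± 0.91 (SE) with an edgeR adjusted p of 0.97, so a change smaller than several-fold could not be detected at this depth. SNURF and SNHG14 overlap SNRPN in RefSeq, and whether reads shared with them were counted is not given in the sources used here.

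The row next to MAGEL2 differed between the lines far more than any of the 10 genes. Row 13542, directly before MAGEL2, is ENSG00000179455, which the files do not name. It was singled out after its values were seen, and whether it is itself imprinted was not examined. Large differences also occurred elsewhere in the table. Of the 13400 tested genes, 63 had a log2 fold change of at least 2.9 and 37 had one below -2.9. That of ENSG00000179455 was 9.53. This gene had 492, 518 and 557 counts in the CAG libraries, against 0 and 1 counts in the PGK libraries. Its mean was 99.1 ± 3.93 CPM in the CAG line (SD, n = 3), against 1 count over both PGK libraries. The ratio of pooled levels was 910-fold, with an exact Poisson 95% interval of 163 to 35974 that covers counting error only, and the edgeR adjusted p was 2.2e-19. MAGEL2, in the row after it, stayed at 0 counts in the same 3 CAG libraries.

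As a description, each tested gene was set beside the 20 tested rows before and the 20 after it. Whether neighbouring rows of this table share a shift was not tested. Around GRB10 the median log2 fold change of the 40 neighbours was -0.11, with 5 called higher and 13 called lower in the CAG line. GRB10 lay 0.32 above that median and above 34 of the 40. With 10 tested rows on each side the difference was 0.20, over 1.5 times smaller. For PLAGL1 the neighbours' median was -0.09, and PLAGL1 minus that median was -0.04, with PLAGL1 above 15 of the 40. That difference turned to 0.021 without PGK replicate 1 and was -0.11 without PGK replicate 2. CDKN1C lay 0.12 above the median of its neighbours (-0.05) and above 26 of the 40, a difference of 0.018 without CAG replicate 1 and 0.22 without CAG replicate 3. The 40 tested rows around the 3 genes of chromosome 15 had a median of 0.03, with 6 called higher and 5 called lower.

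**Figure D4:**
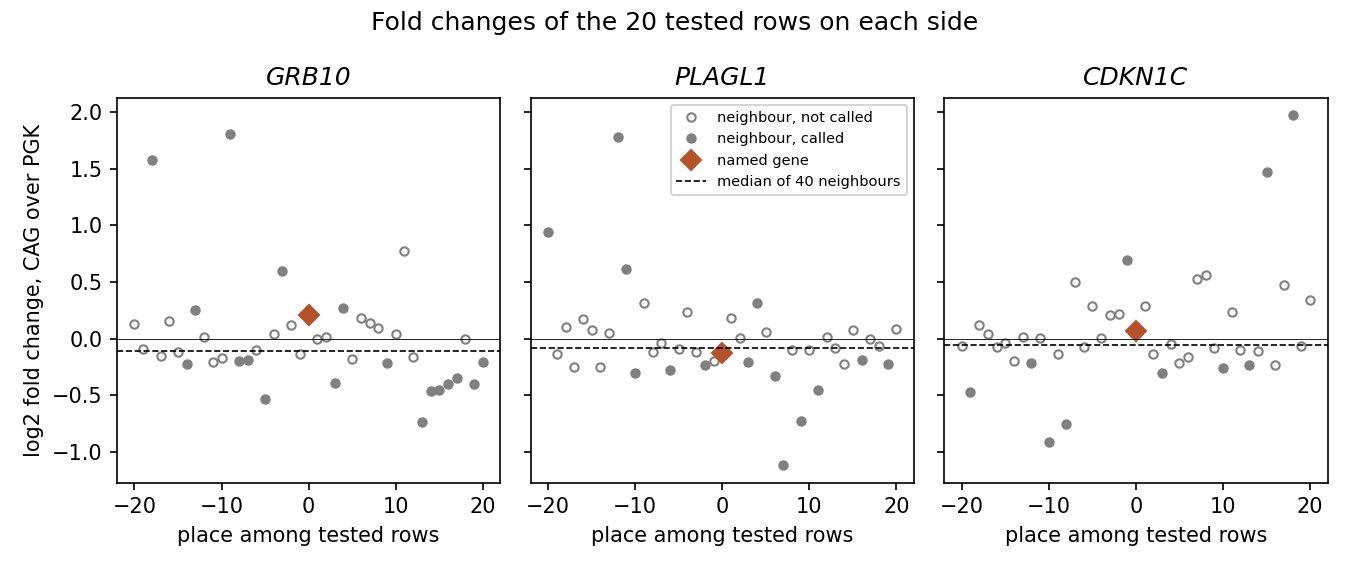
Log2 fold change of the CAG line over the PGK line for GRB10, PLAGL1 and CDKN1C (diamonds) and for the 20 tested rows on each side (circles, filled where called), by place among tested rows, with a dashed line at the median of the 40 neighbours. GRB10 lies 0.32 above its dashed line, PLAGL1 close to its own, and CDKN1C 0.12 above.

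**Figure D5:**
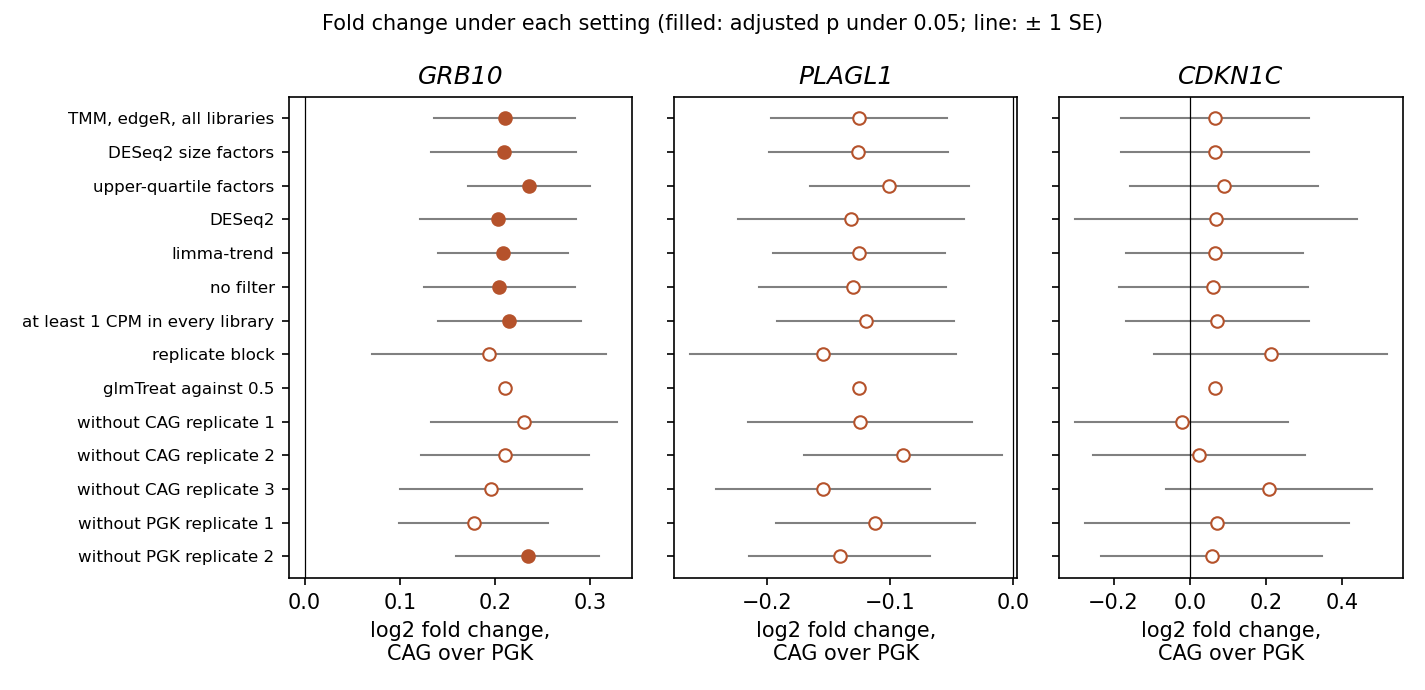
Log2 fold change of the CAG line over the PGK line for the 3 tested genes under each processing setting (points, with lines of 1 SE where the test gives one; filled where the adjusted p is under 0.05). GRB10 is positive in every row and filled in 8 of 14, PLAGL1 is negative and unfilled throughout, and CDKN1C crosses 0 without CAG replicate 1.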

How the data were processed

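The authors deposited raw PRO-seq counts per Ensembl gene for 5 libraries. The build was hg19 and the tools were featureCounts 2.0.3, HISAT2 2.2.1, Bowtie2 2.5.1, UMI-tools, cutadapt and fastp 0.23.2, per the submitters' processing notes. What each tool did, the annotation, the strand setting and the counted part of a gene are not given there or in the labels. Levels were therefore not compared between genes per length. Of 20019 rows, 18 without an identifier (at most 25 counts in a library) were left out. Groups came from sample titles.

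Genes passing edgeR's filterByExpr (minimum count 10, minimum total 15; 13400 genes) were scaled by TMM and tested, CAG over PGK, by edgeR's quasi-likelihood test without covariates (edgeR 4.0.16, R 4.3.3), with Benjamini-Hochberg adjustment over all tested genes and calls at an adjusted p under 0.05. SE is the size of the fold change (log2) divided by √F. Alternatives were DESeq2 1.42.0, its size factors, upper-quartile factors, limma-trend (limma 3.58.1), other filters, a replicate block, glmTreat and leaving out each library. All 10 genes are named by rule. The genes and lists were chosen with earlier results of these data known. Further lists (other imprinted genes, partners, imprint maintenance, cell markers) were not analysed here, since 0 rows of the reference table pair symbols with Ensembl identifiers.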

Additional observations from a re-analysis of the deposited data

Results flagged for a closer look

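Counts outside the comparison were found in the 18 rows that carry no gene identifier. They held 95 counts over the 5 libraries, with 21, 15 and 21 counts in the CAG libraries, against 25 and 13 in the PGK libraries. No line had the 4 libraries needed to look for a library standing apart.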

How the results depend on the processing

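GRB10 was positive in all 13 alternatives (log2 0.18 to 0.24) and kept its call in 7, with an adjusted p of 0.0057 to 0.047 there. Leaving out 1 library gave 0 to 1 called genes among the 10; the call remained only without PGK replicate 2. A lone PGK library was taken to have the spread of the CAG libraries. With the replicate number as a block, 0 of the 10 were called (GRB10 adjusted p = 0.22), and 4667 genes in all. The deviations of libraries that share a number had correlations of 0.04 and -0.07, which gave no sign of pairing. Against a log2 fold change of 0.5 (glmTreat), a stricter hypothesis, 0 of the 10 and 1145 genes in all were called, against 5818. DESeq2 called 3943 genes. Upper-quartile factors gave 3195 higher and 2499 lower, against 3046 and 2772. Without 1 library 4754 to 5689 genes were called. PLAGL1 was negative and not called in all 13 alternatives. CDKN1C ran from -0.021 without CAG replicate 1 to 0.21 with the block and was not called in any; the cause of the turned sign was not tested. GRB10 minus its neighbours was 0.20 with 10 and 0.24 with 40 tested rows on each side, and 0.30 to 0.33 without 1 library. PLAGL1 minus its neighbours ran from -0.11 to 0.021 and CDKN1C minus its neighbours from 0.02 to 0.22 without 1 library. ENSG00000179455 was called in all 13 fits that tested it, the TMM fit on all libraries included; at 1 CPM in every library it was not tested. Alternatives for other imprinted genes were not run. Low counts limit what can be said of the 7 genes under the filter and of CDKN1C.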
